A study of Hordeum vulgare with 2 samples.

Results

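The barley-discovered microRNA families are small RNAs of barley with family numbers from miR5048 to miR6214. The members were every listed small RNA whose name belongs to miR5048, to miR5050 through miR5053 or to miR6176 through miR6214. They came to 19 of the 878 small RNA names in the lists, and all 19 carry the prefix hvu for barley. Their 978 records with values fall on 521 genes. Of the 44 numbers in the rule, 13 had a record in either list and 31 had none.

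The lists come from degradome sequencing of barley shoots, with 1 library from XZ153, a Tibetan wild barley, and 1 from ZD9, a cultivated barley. The seedlings of the study were grown hydroponically at 0.01 mM potassium (low) or 1 mM potassium (control). The labels do not say which potassium level, or which mixture of levels, either library came from. Nor do they say how many plants were pooled, and the shoot label was not checked here because the lists hold cut sites and no expression levels. With 1 library per cultivar, no difference between the cultivars has a replicate check and none was tested.

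In plants a microRNA guides an Argonaute protein to a transcript with a nearly complementary site. The protein cuts the transcript opposite bases 10 and 11 of the microRNA, and mismatches at the centre usually hinder that cut. The downstream fragment keeps a free 5′ phosphate, so degradome reads pile up at the cut. Many small RNA families first reported from a single cereal have no conserved target set, unlike families shared across land plants such as miR160 or miR172.

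The lists hold CleaveLand output, in which a record is a small RNA placed at 1 position of 1 transcript. The Allen score is a penalty for mismatches, so lower means better paired. The energy ratio sets the site's folding energy against that of a perfectly paired site. Category 0 is the highest position of its transcript, category 1 ties for the highest, category 2 lies above the transcript's average, category 3 at or below it, and category 4 is a single read. The deposited p-value is the authors' own, is not adjusted over records and compares no cultivars. Sites in category 0 to 2 whose deposited p-value was at most 0.05 are termed supported. One site can be listed on several isoforms, and counts are therefore of pairs of family and gene.

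XZ153 had 701 member records on 430 genes under 19 names, and ZD9 had 277 on 140 genes under 17 names. The ZD9 records with values stop at transcript HORVU2Hr1G036110.5. A further 44 member records of ZD9 have no values, and all 44 are also XZ153 records. IDs that do not pass HORVU2Hr1G036110.5 form the shared range, in which XZ153 had 106 member pairs on 102 genes. Counts and shares given for XZ153 without naming that range are of its whole list. They cover more IDs than those of ZD9 and are not a comparison with it. Raw reads were listed for ZD9, where they summed to 538 over the member records and to 34935 over the whole list. The depth of both libraries is unknown.

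Most of the names stand for hairpin arms and not for annotated microRNAs. Names written miR, for mature microRNAs, numbered 4, and names written MIR, for other stretches of the hairpin precursor, numbered 15. Mature names made up 51 of the 449 family and gene pairs of XZ153, or 11.4%, and 15 of the 146 of ZD9, or 10.3%. In the shared range of XZ153 they made up 8 of 106, or 7.55%. The 19 names had 19 different seeds (bases 2 to 8), so no pair of names could be grouped by seed. They were 18 to 24 nt long, and 13 of them began with U.

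The small RNAs that the supported sites belong to are shown first, 5′ to 3′ with the seed in capitals, because each of the 5 supported pairs rests on 1 of them.
hvu-miR5048a_L+2R-2: uAUAUUUGcagguuuuaggucu
hvu-MIR6200-p5_1ss2GT: uUGCCAACuagaucuaugauucu
hvu-MIR5052-p5: uGGACGGUaggcauacacauc
hvu-MIR5050-p5: uUUUGCCGguugaacgaccuca
hvu-MIR6201-p3: uAUGAGUGucucagggucaaa
The suffixes are the submitters' notation for a sequence that differs from the database entry at its ends (L, R) or at a base (ss).

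The next 3 are shown because they were listed on the most genes, and 2 of them are 18 and 19 nt long.
hvu-MIR6186-p5: uCUCUCGGccucugccucuuc
hvu-MIR6190-p5: aCGGCGGCcuaacucuugc
hvu-MIR6196-p5: cGAUGGAGgacgaggaga
Together these 3 names supplied 241 of the 449 pairs of XZ153, or 53.7%, and 80 of the 146 pairs of ZD9, or 54.8%. In XZ153 the most listed name was MIR6190-p5 with 89 genes, followed by MIR6196-p5 with 78 and MIR6186-p5 with 74. The shared range of XZ153 had the same order, with 25, 18 and 14 genes. In ZD9 the order was MIR6196-p5 with 29 genes, MIR6190-p5 with 26 and MIR6186-p5 with 25. All 3 have a GC content of 61.1% to 63.2%.

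Not every GC-rich name was listed often, nor every often listed name GC-rich. MIR5053-p3, shown further on, is as GC-rich at 61.9% but had 6 genes in XZ153. MIR6183-p3, with the lowest GC content at 22.2%, had 33. Across the 19 names, genes per name in XZ153 had a Pearson correlation of 0.43 and a Spearman correlation of 0.29 with GC content. With length the values were -0.61 and -0.54. These are descriptions over names that share 1 library, and several come from the same hairpin.

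Some names of 1 family are related in sequence. MIR6183-p3 is the last 18 bases of MIR6183-p5, although the names place them on opposite arms. The 2 start at different bases, so their seeds differ, and so does the position opposite base 10 on a given stretch.
hvu-MIR6183-p3: uUCUGAAGuuaaugauaa
hvu-MIR6183-p5: uGCAAGUUcugaaguuaaugauaa
MIR5050-p3 and MIR5050-p5 are complementary to each other over 15 bases, miR5051 and MIR5051-p5 over 13, and miR6201_R-1 and MIR6201-p3 over 10. Outside the families the longest stretches shared with any other listed name were 10 bases, for example between MIR6186-p5 and names of miR408 and miR528. The name miR6197 was complementary over 10 bases to names of miR5049 and miR5175. No transcript position was listed under more than 1 name in either list. Whether a step before deposit kept 1 name per position is not given in the files. If so, genes per name, recurrence and names with no record would depend on which name was kept.

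Supported sites of the barley-discovered families were few. In the whole XZ153 list 5 of 449 family and gene pairs were supported, or 1.11% (exact 95% interval 0.363 to 2.58), where the share over all pairs of that list was 0.615%. In the shared range it was 1 of 106 in XZ153, or 0.943% (0.0239 to 5.14), against 0.755% of all pairs. In ZD9 it was 0 of 146, or 0% (0 to 2.49), against 0.337% of all pairs. Reading 0 as at most 3 counts allows a share of up to 2.05%, a limit separate from that interval. The intervals include the share of all pairs. Without the condition on category the counts were 7 of 449 in XZ153, beside 0.893% of all pairs, 1 of 106 in the shared range, beside 1.07%, and 0 of 146 in ZD9, beside 0.449%. Category 0 to 2 at any p-value was found in 103 of 449 pairs in XZ153, or 22.9% (19.1 to 27.1), beside 22.1% of all pairs. In the shared range it was 19 of 106 in XZ153, or 17.9% (11.2 to 26.6), beside 22.2%, and 37 of 146 in ZD9, or 25.3%, beside 30.2%. All 3 intervals include the share of all pairs, that of ZD9 being 18.5 to 33.2. Intervals here cover counting error only, because the pairs are not independent. Pairs of 1 name share its sequence, and some share the same site bases on several genes. Isoforms and PCR copies are not independent molecules either.

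The best paired of the supported sites was that of MIR6200-p5. In XZ153 this name had 2 records, on HORVU1Hr1G036720 and HORVU2Hr1G068630, and both carry the same 23 bases. The site is shown with the base at the listed cut, opposite base 10 of the small RNA, in capitals.
MIR6200-p5 site on both genes: agaaucauagaucUaguuggcca
It paired 22 of 23 bases by Watson-Crick rules, with an Allen score of 3 and an energy ratio of 0.970. On HORVU1Hr1G036720 the cut at position 415 of isoform 3 was category 2 with a deposited p-value of 0.000814, the lowest of any member record. On HORVU2Hr1G068630 the cut at position 1104 of isoform 2 was a single read, category 4, with a p-value of 0.00858.

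The mismatch of this site lies at the base that the name marks as changed. The name notes the substitution G2U, counted from 1 at the 5′ end, and with G put back at base 2 the small RNA is the exact reverse complement of both sites.
MIR6200-p5 with base 2 put back: uGgccaacuagaucuaugauucu
No MIR6200 record was listed in ZD9, and ZD9 had 0 records of any name on either gene. HORVU1Hr1G036720 lies in the shared range, whereas HORVU2Hr1G068630 lies after it. In XZ153 the record of MIR6200-p5 was the only record on HORVU1Hr1G036720, and the other gene had 3 more under other names.

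The miR5048 site was the supported site under a mature name, and the only member site in category 0 that was supported. It lies on HORVU7Hr1G043150, after the shared range.
miR5048a site: agaccuaaagucUgcuaauaua
In XZ153 it was the highest position of isoform 1 at position 576 and of isoform 2 at position 702, and its p-values, 0.0437 and 0.0440, were only just under 0.05. The Allen score was 3.5 and the energy ratio 0.741, with 19 Watson-Crick and 2 G-U pairs. The same 22 bases on HORVU7Hr1G065130 held a single read at position 516, with a p-value of 0.922. So 1 site sequence was category 0 on 1 gene and category 4 on another.

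Most other miR5048 records had high Allen scores. The family had 34 genes in the whole XZ153 list with a median Allen score of 10.5 over records. In the shared range it had 7 genes in XZ153 with a median of 13, and 9 genes in ZD9 with a median of 11.5. Its lowest ZD9 p-value was on HORVU1Hr1G048390, which had 3 reads at position 1637, category 2, an Allen score of 5.5 and a p-value of 0.782. In XZ153 that position was a single read with a p-value of 0.929. The hairpin-arm name MIR5048b-p3 was listed on 3 genes in XZ153 and on 1 in ZD9, with no supported site.

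The other 3 supported pairs were hairpin-arm names at category 2 in XZ153, with Allen scores of 8 to 9. They are shown because they pair far less well than the sites of MIR6200-p5 and miR5048.
MIR5052-p5 site on HORVU6Hr1G092970: ggugugugugcCugccggcag
MIR5050-p5 site on HORVU7Hr1G001010: agaggucguucaGccgccgcaagu
MIR6201-p3 site on HORVU6Hr1G016890: gaagacccugaGgcauucgcc
The MIR5052-p5 site lay at position 1190 of isoform 1, with a p-value of 0.0121 and an energy ratio of 0.815. The MIR5050-p5 site lay at position 1110 of isoform 2, with a p-value of 0.0185 and an energy ratio of 0.827. The MIR6201-p3 site lay at position 684 of isoform 3, with a p-value of 0.0289 and an energy ratio of 0.798. The MIR6201-p3 site was also listed on isoforms 4 and 5 as single reads, with p-values of 0.106 and 0.110, so its support rests on 1 of 3 isoforms. On HORVU7Hr1G001010 and HORVU6Hr1G092970 XZ153 listed 10 further records each under other names. All 3 genes lie after the shared range, so ZD9 cannot be set beside them.

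The remaining families had no supported pair, and their best sites were as follows. For MIR6190-p5 it was HORVU4Hr1G058150, position 699 of isoform 1, with a p-value of 0.00222 and an Allen score of 5 but category 3, at or below the transcript's average.
MIR6190-p5 site on HORVU4Hr1G058150: gcaagaggaAggccgccgc
For miR6197 the best site was category 1 on isoform 4 of HORVU5Hr1G068380 at position 2233, with a p-value of 0.0580, just above the limit. On isoform 3 the same site was a single read with a p-value of 0.894.

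For MIR5053-p3 the best site was in ZD9 and is shown because it was the best-read category 0 site of the members there.
hvu-MIR5053-p3_1ss13CA: uCUCCGACacguacagcacgc
MIR5053-p3 site on HORVU1Hr1G095220: gcgugcgguccAugucggaga
Position 1360 of isoform 1 held 6 reads, category 0, with an Allen score of 5 and a p-value of 0.103. XZ153 listed 0 records of any name on this gene, which lies in the shared range. The name notes the substitution C13A, and the site is not complementary to the unchanged base at that position.

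For miR5051 the best site, category 0 in XZ153, was position 1770 of isoform 6 of HORVU5Hr1G095060 (p-value 0.122). For MIR6191-p5 it was position 309 of isoform 2 of HORVU2Hr1G004610, also category 0 in XZ153 (p-value 0.136). In ZD9 that position held 1 read with a p-value of 1. MIR6183-p3 had its lowest p-value, 0.183, at a single read on HORVU4Hr1G073380 in XZ153, and MIR6186-p5 had 0.269 at category 1 on HORVU4Hr1G072920. MIR6196-p5 had 0.269 on HORVU2Hr1G012460, described with the sites found in both libraries. None of these passed the limit.

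Category 0 sites were scarce, as in the lists at large. XZ153 had them in 7 of 449 pairs, or 1.56% (0.629 to 3.19), where all pairs had 2.13%. In the shared range XZ153 had 2 of 106, or 1.89% (0.229 to 6.65), with 2.1% of all pairs, and ZD9 had 3 of 146, or 2.05% (0.426 to 5.89), with 2.41% of all pairs. The other 2 category 0 sites of ZD9 were a MIR6183-p3 site with 2 reads on HORVU1Hr1G072410 and a MIR6196-p5 site with 3 reads on HORVU1Hr1G001910. The p-value of the first was 0.573, and that of the second was higher. No category 0 gene of ZD9 was category 0 in XZ153 under the same name.

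The centre of MIR6190-p5 was seldom fully paired. In XZ153 8 of its 89 genes, or 8.99%, had a site with bases 9 to 11 of the small RNA all paired, G-U pairs included, and in ZD9 4 of 26, or 15.4%. Among 339 other names with at least 20 genes in XZ153, the median was 79.4% and 0 were at or below MIR6190-p5. In ZD9 the median over 100 such names was 80.3%, with 1 at or below MIR6190-p5. In the shared range of XZ153 MIR6190-p5 had 4 of 25, or 16.0%. The median over 49 such names there was 82.6%, with 1 at or below MIR6190-p5. A seed with every base in a Watson-Crick pair was found on 37 of its 89 genes in XZ153, or 41.6%, where pairs of other families had 13.6%. In ZD9 it was found on 11 of 26, or 42.3%, where pairs of other families had 13.5%. These are shares of pooled pairs, unlike the medians over names given for the centre. Extra target bases lying between paired ones were not counted against a seed or a centre. A seed or centre counted as paired, in any family, can therefore be interrupted on the target side. A paired seed was not particular to this name. MIR6183-p3 had it on 12 of 33 genes in XZ153 and 5 of 10 in ZD9, and MIR5053-p3 on 4 of 6 and 2 of 3. The remaining member names had at most 33.3%.

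The share of member pairs with a paired centre was lower than in other families with this name and closer to it, in both libraries, without it. In XZ153 bases 9 to 11 were paired in 284 of 449 member pairs, or 63.3% (58.6 to 67.7), and in 78.04% (77.5 to 78.6) of pairs of other families. Without MIR6190 the member share was 276 of 360, or 76.7% (71.9 to 80.9). In ZD9 the shares were 69.9% (61.7 to 77.2) for members, 81.7% (73.6 to 88.1) for members without MIR6190 and 77.7% (76.8 to 78.7) for other families. Leaving out MIR6190 was chosen after the data were seen, and no test was made, because pairs of 1 name share 1 sequence.

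One MIR6190-p5 site recurred on many genes. The same 18 bases were listed on 15 genes in XZ153, from HORVU0Hr1G011150 to HORVU6Hr1G047260.
MIR6190-p5 repeated site: gcgagagcGggucgccgc
Of its 17 records in XZ153, 14 were category 3, 2 were category 2 and 1 was category 4, with p-values from 0.434 to 0.9996 and an Allen score of 7.5. In the shared range it was on the same 2 genes in both libraries. On HORVU2Hr1G019240, position 224, it was category 2 in both, with 4 reads in ZD9 and p-values of 0.767 (XZ153) and 0.988 (ZD9). On HORVU0Hr1G011150, position 470, it was category 3 in XZ153 and category 3 with 3 reads in ZD9. The site thus gave the same category in both libraries on these genes, at p-values far above the limit.

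MIR6196-p5 is made mostly of G and A, and its sites shown here are mostly C and U. They are shown, 1 from each library, because they were among the best paired of this often listed name.
MIR6196-p5 site on HORVU5Hr1G111640, XZ153: ccgccucgUccuccgucu
MIR6196-p5 site on HORVU2Hr1G014610, ZD9: ccuccgugUccuccaucg
The first had an Allen score of 4 and a p-value of 0.788, and the second an Allen score of 3, a single read on isoform 6 and on isoform 9, and p-values of 0.309 and 0.360. MIR6186-p5 paired best on HORVU1Hr1G079960 in ZD9, with a single read at position 505, an Allen score of 4 and a p-value of 0.406. The well-paired MIR6196-p5 site on HORVU2Hr1G019180 in ZD9, with an Allen score of 3, held 3 reads at category 2 but had a p-value of 0.9997. Neither name had a supported site.

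Sites were ranked by their largest ZD9 read count on 1 isoform, without adding up isoforms. The sites with most reads in ZD9 had Allen scores of 7 and above, except for a MIR5053-p3 and a MIR6196-p5 site. The highest count on 1 isoform, 23 reads, was that of MIR6190-p5 at position 53 of HORVU1Hr1G053170. It was category 3 in ZD9, with an Allen score of 7.5 and a p-value of 1. In XZ153 the same position was also category 3, with a p-value of 0.996. The next, with 20 reads, was MIR6201-p3 on isoform 1 of HORVU1Hr1G088920 at position 735, category 2 in both libraries. Its p-value was 0.686 in XZ153 and 0.971 in ZD9. Its Allen score was 10.

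The MIR6201-p3 sites fell in part on genes with a common stretch. The letters GCAUUCGC were in the site on 6 of its 29 genes in XZ153 and on 2 of 7 in ZD9, and in no site of another member name. Over all names, MIR6201-p3 among them, 0.0751% of genes in the whole XZ153 list had a listed site with these letters. The cuts lay at positions 615 to 789 of those transcripts. The 2 found in both libraries are shown, to be set beside the site on HORVU6Hr1G016890. For HORVU1Hr1G088920 the site shown is that of isoform 1. Isoforms 2 and 3 held a different site, with an Allen score of 11 and bases 9 to 11 not all paired. It was category 2 in XZ153 on isoform 2 and category 3 in both libraries on isoform 3.
MIR6201-p3 site on HORVU1Hr1G088920: gaugaccccgaGgcauucgcc
MIR6201-p3 site on HORVU1Hr1G078380: gaugacccagaGgcauucgcg
On HORVU1Hr1G078380 ZD9 held 8 reads on isoform 1 and 7 on isoform 2, both category 2, where XZ153 had category 4 and category 3. Its p-values were 0.9995 and 0.441 in XZ153, and 0.988 and 0.990 in ZD9. The stretch was chosen from these same sites after they were seen. Its rarity over all names was in part set by that choice, so no conclusion is drawn from it.

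MIR5050-p5 gave the site with the next highest count on 1 isoform, on HORVU1Hr1G051700. ZD9 held 10, 15 and 18 reads on isoforms 1, 6 and 7, and 2 on isoform 4. The first 3 isoforms were category 2 in both libraries, with p-values of 0.847, 0.855 and 0.855 in XZ153 and of 0.997 in ZD9, and isoform 4 was listed in ZD9 alone. The Allen score was 14.
MIR5050-p5 site on HORVU1Hr1G051700: ggaggucguuggcAucggcuaca

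MIR5051-p5 repeated a cut over many isoforms of HORVU1Hr1G095430. It was listed on the same 8 isoforms in both libraries, with an Allen score of 8.5.
hvu-MIR5051-p5: cCAGUUUCaagguuucaaagc
MIR5051-p5 site on HORVU1Hr1G095430: gugcagagaccUguggaacugg
ZD9 held 8 reads on isoform 9, 7 on isoform 10, 4 on isoform 6, 3 on isoform 8, 2 on isoform 7 and 1 each on isoforms 1, 3 and 5. XZ153 had category 2 on isoforms 1, 3, 5, 7 and 10 and category 4 on isoforms 6, 8 and 9. ZD9 had category 2 on isoforms 6 to 10 and category 4 on isoforms 1, 3 and 5. Isoforms 7 and 10 were thus category 2 in both, while the other 6 were category 2 in 1 library and a single read in the other. The p-values ran from 0.554 to 0.990 in XZ153 and from 0.915 to 0.9999 in ZD9.

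The other sites with most ZD9 reads had 8 or fewer on any isoform. MIR6183-p3 held 8 reads on isoform 4 of HORVU1Hr1G045520, where XZ153 had a single read, and 1 read on isoform 1, where XZ153 had category 2. MIR6186-p5 held 6 reads on isoform 2 of HORVU1Hr1G089360 and 5 on isoform 3 of HORVU0Hr1G019500, at Allen scores of 15 and 18. MIR6196-p5 held 5 reads on HORVU1Hr1G013970, with an Allen score of 5 and a p-value of 1, and XZ153 did not list this record. XZ153 listed other isoforms of HORVU1Hr1G089360 and HORVU0Hr1G019500 under MIR6186-p5, as single reads. Most member pairs held less: 91 of the 146, or 62.3% (53.9 to 70.2), had 1 read at most on any isoform, compared with 61.2% (60.03 to 62.3) of pairs of other families.

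Pairs of family and gene were listed in both libraries, at any position, at a share whose interval includes that of all pairs. Of the 146 ZD9 pairs 48, or 32.9% (25.3 to 41.1), were also listed in XZ153, where the share of all ZD9 pairs was 31.7%. The same 48 were 45.3% (35.6 to 55.2) of the 106 XZ153 pairs in the range, where other families had 47.4%. By ZD9 reads, 18 of 91 pairs with 1 read recurred, 23 of 47 with 2 to 5 reads and 7 of 8 with more than 5, or 19.8%, 48.9% and 87.5%. For other families these shares were 21.5%, 41.8% and 81.9%. The pair that did not recur among the last was the MIR5053-p3 site on HORVU1Hr1G095220.

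By family, and in the shared range throughout, MIR6190 shared 12 genes between 25 in XZ153 and 26 in ZD9, and miR6186 shared 8 between 17 and 30. The miR6196 family shared 7 between 18 and 29, and miR6201 shared 4 between 7 and 7. The miR5048, miR5050 and miR6191 families shared 4 genes each, miR5051 and miR6183 2 each, and miR5053 1. The miR5052, miR6197 and miR6200 families shared none, with 1, 0 and 1 genes in XZ153 and 3, 3 and 0 in ZD9.

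Exact positions recurred less often, and none was supported. The libraries had 62 member records at the same transcript and position, on 38 genes. The category was the same in both libraries for 30 of the 62. The lowest p-values among them were 0.136 in XZ153 and 0.580 in ZD9. Category 0 to 2 in both libraries was found for 11 of the 62, on 7 genes. These counts of exact positions were not made for other families. They therefore do not show whether members differ from the lists at large.

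Those 7 genes include HORVU1Hr1G051700, HORVU1Hr1G088920, HORVU1Hr1G095430 and HORVU2Hr1G019240, given above. HORVU2Hr1G012460 is a further one, with a MIR6196-p5 site on isoforms 2 and 3, an Allen score of 5 and 4 reads on each isoform in ZD9.
MIR6196-p5 site on HORVU2Hr1G012460: ccucccgUccgccgucg
Isoform 3 was category 0 in XZ153 and category 2 in ZD9, at p-values of 0.269 and 0.99997. Isoform 2 was category 2 in both. The last 2 genes, HORVU1Hr1G021720 of MIR6186-p5 and HORVU1Hr1G069560 of MIR6190-p5, had category 2 sites with 3 reads in ZD9 and p-values of 1 in both libraries.

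Median Allen scores of the members were close to those of the rest. The median of the lowest Allen score per pair was 8 for members and 8 for other families in XZ153, and 8 and 8 in ZD9. Pairs with an Allen score of at most 4 were 13 of 449 in XZ153, or 2.90% (1.55 to 4.90), and 3.65% of pairs of other families. In ZD9 they were 3 of 146, or 2.05% (0.426 to 5.89), and 3.62% of pairs of other families. In conserved families, such as miR160 and miR172, the shares were 4.64% in XZ153 and 3.87% in ZD9. In miR5049, a neighbouring number outside the rule, they were 21.2% (15.2 to 28.2) and 15.9% (8.24 to 26.7). The medians were 8 and 8 in conserved families, and 9 and 9.5 in miR5049. The lowest score of any member record was 2.5, for MIR6191-p5 on HORVU1Hr1G028330 in XZ153, whereas other families reached 0.

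That best-paired member site is shown because it is the best paired and yet rests on 1 read.
hvu-MIR6191-p5: cUUGUCUUagauuugucuaga
MIR6191-p5 site on HORVU1Hr1G028330: ucuagauaaauGuaagacaag
It was a single read at position 1669 of isoform 1, category 4, with a p-value of 0.521 and an energy ratio of 0.873. Of the 13 member pairs in XZ153 with a score of at most 4, the supported ones were those of MIR6200-p5 on HORVU1Hr1G036720 and miR5048a on HORVU7Hr1G043150. The other 11 were single reads. Category 4 made up 71.6% of all member records in XZ153 and 73.4% of records of other families. The share among pairs of other families with a score of at most 4 was not computed.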

How the data were processed

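Per the labels, 1 degradome library each was made from shoots of XZ153 and ZD9. Each record of the deposited tables is CleaveLand output, per the file headers and plot paths; the sources used here do not give its version, the aligner, the transcript release or the genome build. Per the file headers, the authors deposited raw read counts for ZD9, an energy ratio, an Allen score, a category and a p-value per record. The lowest energy ratio was 0.65 in both lists.

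Families were read from the name and isoforms merged to the gene. Shares have exact Clopper-Pearson 95% intervals (Python 3.11.15, pandas 2.3.3, SciPy 1.17.1), and a count of 0 was read as at most 3 counts. Pairing was counted base by base along the small RNA in the deposited alignments, and extra target bases were passed over. The code was tested on simulated data, in which the pairing had no gaps. The named sites were the supported pairs, the lowest p-value of each other family, the 10 pairs with most ZD9 reads, sites in category 0 to 2 in both libraries and pairs with an Allen score of at most 2.5. Other named sites (further category 0 sites, sites with an Allen score of at most 4, the lowest ZD9 p-value of miR5048, repeated site sequences) were chosen after their values were seen. The members, lists and rules were chosen with earlier results of these data known. Sequences are those of the deposited tables. Lines left out, 3 of ZD9 and 20 of XZ153, are not analysed here. Gene IDs are printed as deposited, since the RefSeq table used holds none of them.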

Additional observations from a re-analysis of the deposited data

How the results depend on the processing

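No paired analysis was possible because each cultivar has 1 library and no result comes from a test. Of 36 alternatives tried, 20 changed a count by at most 1.5 times, or kept a share or median inside its interval, and the other 16 did not. Supported pairs in ZD9 were 0, which of the alternatives only counting all categories could have raised, and it gave 0. The other ZD9 alternatives for this count could not change it, yet they are among the 20. In the whole XZ153 list the 5 supported pairs became 1 with a p-value limit of 0.01 (MIR6200-p5), 1 with category 0 alone and 1 under mature names (both miR5048a), and 2 with an Allen score of at most 4. In the shared range the 1 pair of XZ153 became 0 with category 0 alone and 0 under mature names. The category 0 share became 0% in the shared range of XZ153 (of 8 and 2 pairs) and 0% in ZD9 (of 15 and 3 pairs) under mature names and with an Allen score of at most 4. The share of ZD9 pairs listed in XZ153, 32.9%, became 22.4% by exact record and 54.5% for pairs with at least 2 reads. The median Allen score in ZD9, 8, became 9 under mature names. Of the 36, the 6 that count all categories or leave out MIR6190 were chosen after seeing the data. Counting supported sites in all categories gave 7 pairs in XZ153. Leaving out MIR6190 brought the share of pairs with bases 9 to 11 paired to 76.7% in XZ153, 76.5% in its shared range and 81.7% in ZD9, where it was 63.3%, 62.3% and 69.9% with that name. Unknown depth, single libraries and unadjusted p-values limit all counts.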
